A study of Rattus norvegicus with 4 samples.

Results

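Egr1, Egr2, Egr3 and Egr4 encode the early growth response zinc-finger transcription factors, and Nr4a1, Nr4a2 and Nr4a3 encode orphan nuclear receptors also called Nur77, Nurr1 and NOR-1. The 7 genes are the members of both families and were chosen by name, with earlier results of these data known. Each was matched by gene identifier to a probe set annotated to that gene alone, and each had 1 such probe set, which gives 7 of the 17245 genes measured. Arrays of 2 groups were compared. In the first, the neurons carried PHF6shRNA-2, a short hairpin RNA (shRNA) directed at PHF6, and in the second they carried a control shRNA, with 2 arrays each. In both, the cells were primary cortical neurons cultured from Sprague Dawley rat embryos at embryonic day 18, infected with pLL3.7 lentivirus and lysed for total RNA 5 days later. PHF6 is an X-linked zinc-finger protein of the nucleus whose mutation causes a syndromic intellectual disability. A single shRNA was used, so effects of PHF6 loss and other effects of that hairpin cannot be told apart. The source label writes PHF6 KO where the genotype label writes knockdown. The labels call the arrays biological duplicates without saying whether they came from separate cultures or litters, so p-values measure the spread between these arrays, which may be technical.

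Both families are immediate early genes. Calcium entry and growth factor signals switch them on in neurons without new protein synthesis, through kinases of the MAP kinase pathway, the transcription factors SRF, ELK and CREB at their promoters, and calcineurin and MEF2 for Nr4a1. EGR proteins bind GC-rich sites and are restrained by the NAB co-repressors, and NR4A proteins bind DNA as monomers or dimers, in some cases with a retinoid X receptor. In the rodent cortex Egr1 is a widely used marker of recent neuronal activity, and Nr4a2 is in addition a lasting marker of subplate and claustrum neurons.

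Probe set intensities on the 4 arrays had medians between 40.9 and 41.7. The signal of 1271 sensory receptor genes (olfactory and vomeronasal), which neurons of the cortex should not express, served as background. Its 95th percentile stood at 42.6 and 36.3 intensity units on PHF6 shRNA duplicates 1 and 2 and at 43.8 and 34.7 on control duplicates 1 and 2. Phf6 itself did not exceed that level on any array, at 34.4 and 31.3 against 32.8 and 34.3 in the controls, so the knockdown could not be checked on the arrays. All 8 neuronal markers were above background on all 4 arrays, Tubb3 and Snap25 among them. In bulk RNA fewer cells of a type and less RNA per cell cannot be told apart.

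Promoter windows from 250 bases before to 50 bases after a transcript start were found for 5 of the 7 genes in RefSeq (GRCr8). They are described because SRF binds CArG boxes and CREB binds cAMP response elements, the classical inputs of immediate early genes. Both strands were searched for the CArG box, the full cAMP response element TGACGTCA and its core TGACG (which the full element contains), the Nr4a site AAAGGTCA, the Egr site GCGNGGGCG and the TATA box TATAAA. Positions count from 0 at the transcript start. Egr1 held 2 CArG boxes, at -105 to -96 and -83 to -74, and 2 cAMP response cores. Egr2 held 1 CArG box, also at -83 to -74, and 1 core at -66 to -62. Egr4 held 2 cores. Nr4a1 held 4 cores and an Egr site at -73 to -65, and Nr4a2 held 1 core at -8 to -4. The CArG box was thus in 2 of 5 windows, against 1.64% of the 33469 rat promoter windows of this length, and the core was in 5 of 5, against 21.2%. The Egr site was in 1 of 5, against 4.98%. The full element, the Nr4a site and the TATA box had no match in the 5 windows, and they were in 1.83%, 1.43% and 14.2% of all windows. A match is a description of the letters and not evidence of binding. The windows of Nr4a1 and Nr4a2 are printed because these 2 receptors had opposite differences between the groups, and those of Egr2 and Egr4 as family members with and without a CArG box. Capitals mark the motif matches. The lines give the 5′ to 3′ sequence of chr7:134259888-134260187 (plus strand, Nr4a1), chr3:62104838-62105137 (minus strand, Nr4a2), chr20:21054392-21054691 (minus strand, Egr2) and chr4:119607768-119608067 (minus strand, Egr4), all on GRCr8. The Nr4a1 and Nr4a2 windows lie within the annotated gene spans, since these genes have several annotated transcripts. The Egr2 window also lies within its annotated gene span. The windows of Nr4a1, Nr4a2 and Egr2 are thus not at the outer ends of their genes. Other starts of these genes were not searched, so the numbers of matches do not compare their promoters as a whole.
Nr4a1: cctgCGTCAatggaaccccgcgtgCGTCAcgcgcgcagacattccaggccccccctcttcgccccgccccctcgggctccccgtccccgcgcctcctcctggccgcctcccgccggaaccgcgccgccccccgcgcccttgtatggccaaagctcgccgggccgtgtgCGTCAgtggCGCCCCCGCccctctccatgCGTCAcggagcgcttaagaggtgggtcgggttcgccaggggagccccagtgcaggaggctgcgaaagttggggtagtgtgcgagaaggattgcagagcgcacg
Nr4a2: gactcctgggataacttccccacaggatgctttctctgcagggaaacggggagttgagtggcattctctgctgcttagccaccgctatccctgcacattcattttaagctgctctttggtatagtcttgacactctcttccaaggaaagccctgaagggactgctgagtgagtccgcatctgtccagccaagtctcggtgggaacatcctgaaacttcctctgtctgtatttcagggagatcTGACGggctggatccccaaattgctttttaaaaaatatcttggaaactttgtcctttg
Egr2: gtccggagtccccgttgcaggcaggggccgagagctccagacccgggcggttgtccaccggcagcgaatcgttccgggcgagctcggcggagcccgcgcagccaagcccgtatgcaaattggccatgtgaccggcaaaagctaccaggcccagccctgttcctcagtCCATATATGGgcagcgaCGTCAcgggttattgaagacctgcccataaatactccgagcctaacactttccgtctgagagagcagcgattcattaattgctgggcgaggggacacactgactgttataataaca
Egr4: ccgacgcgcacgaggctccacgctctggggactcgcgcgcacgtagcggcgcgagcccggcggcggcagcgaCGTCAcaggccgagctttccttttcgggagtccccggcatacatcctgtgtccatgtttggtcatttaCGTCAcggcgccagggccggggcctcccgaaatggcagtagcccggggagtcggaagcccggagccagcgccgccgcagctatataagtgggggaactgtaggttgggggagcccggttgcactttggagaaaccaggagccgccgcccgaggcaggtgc

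**Figure D1:**
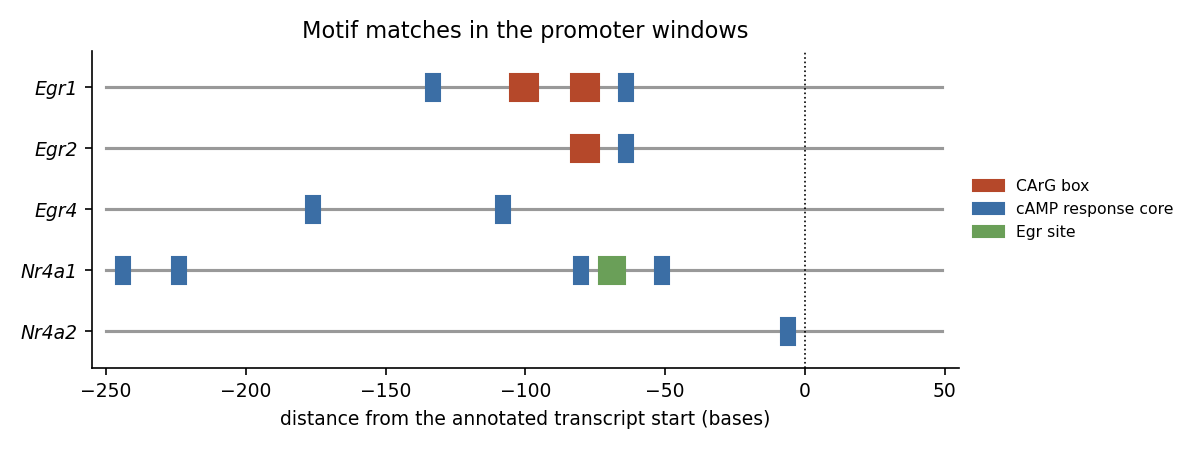
Motif matches in the promoter windows of 5 genes. The horizontal axis is the distance from the annotated transcript start in bases, each grey line is a window and each box a match drawn to scale. Egr1 and Egr2 share a CArG box at -83 to -74. All 5 windows hold a cAMP response core, and Nr4a1 has the most, with 4.

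The question was how transcripts of the 2 families compared between neurons carrying the PHF6 shRNA and those carrying the control shRNA. Of the 7 genes, 6 were higher on average in the PHF6 shRNA arrays and 1, Nr4a1, was lower, where 52.3% of all genes were lower. Nr4a2 and Egr1 stood 1.42-fold and 1.35-fold higher, Egr3 and Nr4a3 1.28-fold each, and Nr4a1 was 1.46-fold lower. None of the 7 passed the adjusted threshold (limma, Benjamini-Hochberg over 17245 genes, adjusted p under 0.05), and neither did any other gene, a background of 0%. Adding the number of the duplicate to the model as a replicate block changed this call. In it 4 of the 7 passed toward higher signal (Nr4a2, Egr1, Nr4a3 and Egr3), where 1.76% of all genes did, and Nr4a1 passed toward lower signal, where 3.51% did. The sample descriptions carry the number after "exp" but do not say what it marks, so the fit without a block is the one reported. In that fit, at an unadjusted p under 0.05, 4 of the 7 were higher, where 3.28% of all genes were, and 0 of the 7 lower, where 7.52% of all genes were. Those shares correspond to 565 higher and 1297 lower genes, of which 69.7% were lower. That share was 48.2% after cyclic loess scaling and 54.5% after another round of quantile normalization. The median difference of the 7 genes was 0.35 log2 units and that of all genes -0.0066. With 2 arrays a group, an exact permutation test of a single gene cannot give a two-sided p below 0.33.

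**Figure D2:**
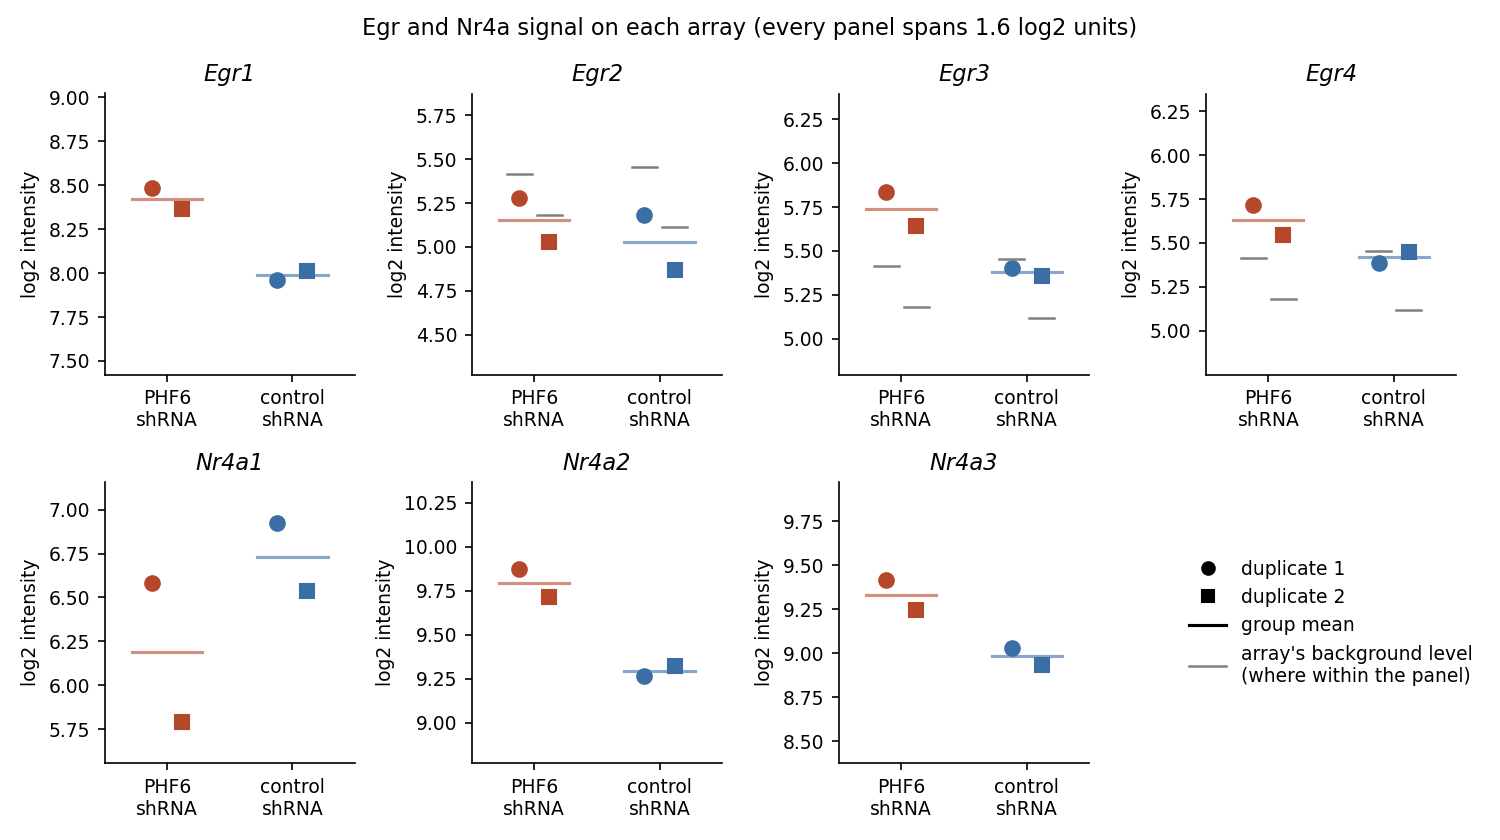
Log2 intensity of the 7 genes on each array. Each panel is a gene with its own vertical axis spanning 1.6 log2 units, circles are duplicates numbered 1, squares those numbered 2, coloured lines group means and short grey lines the background level of that array. Egr1, Egr3, Egr4, Nr4a2 and Nr4a3 have both PHF6 shRNA arrays above both control arrays, and Egr2 lies below background on all 4.

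Egr1, also known as Zif268 or Krox-24, read 358 and 329 intensity units in the PHF6 shRNA duplicates 1 and 2, against 249 and 258 in the control duplicates. Both PHF6 shRNA arrays lay above both control arrays, and all 4 values were far above background, by 2.51 to 3.18 log2 units. The means were 8.42 ± 0.09 and 7.99 ± 0.04 log2 units (SD, n = 2 each). They differed by 0.44 ± 0.09 (SE), with a 95% interval from 0.21 to 0.66 (limma adjusted p = 0.24). Only 3.41% of all genes had a larger difference in either direction. The gap between duplicates, taken as duplicate 2 minus duplicate 1, was -0.12 in the PHF6 shRNA group and 0.05 in the control group, both smaller than the group difference.

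Egr3, a relative of Egr1 that is also needed for muscle spindles to form, was close to background. It read 57.1 and 49.96 in the PHF6 shRNA arrays, against 42.3 and 40.96 in the control arrays. The groups did not overlap, but control duplicate 1 lay 0.05 log2 units below the background level of its array. The difference was 0.36 ± 0.10 log2 units, with a 95% interval from 0.11 to 0.61 (limma adjusted p = 0.32). RMA compresses dim signals, so folds of Egr3 and Egr4 are not exact.

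Egr4, a brain-enriched member that lacks the NAB-binding region of its relatives, read 52.5 and 46.6 in the PHF6 shRNA arrays, against 41.8 and 43.7 in the control arrays. The groups did not overlap, by a margin of 0.10 log2 units between the closest arrays, and control duplicate 1 was again below background. Relative to the background level of each array the groups did overlap. There Egr4 stood at 0.30 and 0.36 log2 units in the PHF6 shRNA arrays, against -0.07 and 0.33 in the control arrays. Its difference of 0.21 ± 0.10 log2 units had a 95% interval that included 0, from -0.03 to 0.45 (limma adjusted p = 0.54).

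Egr2, or Krox20, is best known for hindbrain patterning and for myelination by Schwann cells. It read 38.8 and 32.6 in the PHF6 shRNA arrays, against 36.4 and 29.2 in the control arrays, and was below the background level on all 4. The groups overlapped. Its difference of 0.13 ± 0.15 log2 units (limma adjusted p = 0.91) was smaller than the gap between duplicates, -0.25 in the PHF6 shRNA group and -0.32 in the control group.

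Nr4a2 had the highest positive difference of the 7 genes. It read 939 and 841 intensity units in the PHF6 shRNA arrays, against 615 and 640 in the control arrays. Both PHF6 shRNA arrays lay above both control arrays, at 9.80 ± 0.11 against 9.29 ± 0.04 log2 units (SD, n = 2 each). The difference was 0.50 ± 0.09 (SE), with a 95% interval from 0.27 to 0.74 (limma adjusted p = 0.24, unadjusted 0.0024), and 2.27% of all genes had a larger one in either direction. The gaps between duplicates were -0.16 and 0.06 log2 units in the PHF6 shRNA and control groups.

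Nr4a3 read 684 and 608 in the PHF6 shRNA arrays, against 524 and 488 in the control arrays, again without overlap. Its means were 9.33 ± 0.12 and 8.98 ± 0.07 log2 units (SD, n = 2 each). They differed by 0.35 ± 0.10 (SE), with a 95% interval from 0.10 to 0.60 (limma adjusted p = 0.32). The gaps were -0.17 and -0.10 log2 units in the PHF6 shRNA and control groups.

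Nr4a1, the receptor most often used as a marker of acute calcium signalling, differed from its relatives. It read 95.9 and 55.3 intensity units in the PHF6 shRNA arrays, against 121 and 92.8 in the control arrays, all above background. The groups overlapped, since PHF6 shRNA duplicate 1 read above control duplicate 2. The difference was -0.54 ± 0.28 log2 units, with a 95% interval from -1.24 to 0.16 (limma adjusted p = 0.60). The gap between duplicates was -0.79 in the PHF6 shRNA group, larger than the difference between groups, and -0.39 in the control group, and 0.939% and 5.98% of all genes had larger gaps in those groups. Leaving out PHF6 shRNA duplicate 2 gave a difference of -0.15, and leaving out PHF6 shRNA duplicate 1 gave -0.94. For this pair, chosen as the ends of the range, the mean-centred signal of Nr4a2 less that of Nr4a1 was 0.20 and 0.84 log2 units in the PHF6 shRNA arrays, against -0.75 and -0.30 in the control arrays.

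**Figure D3:**
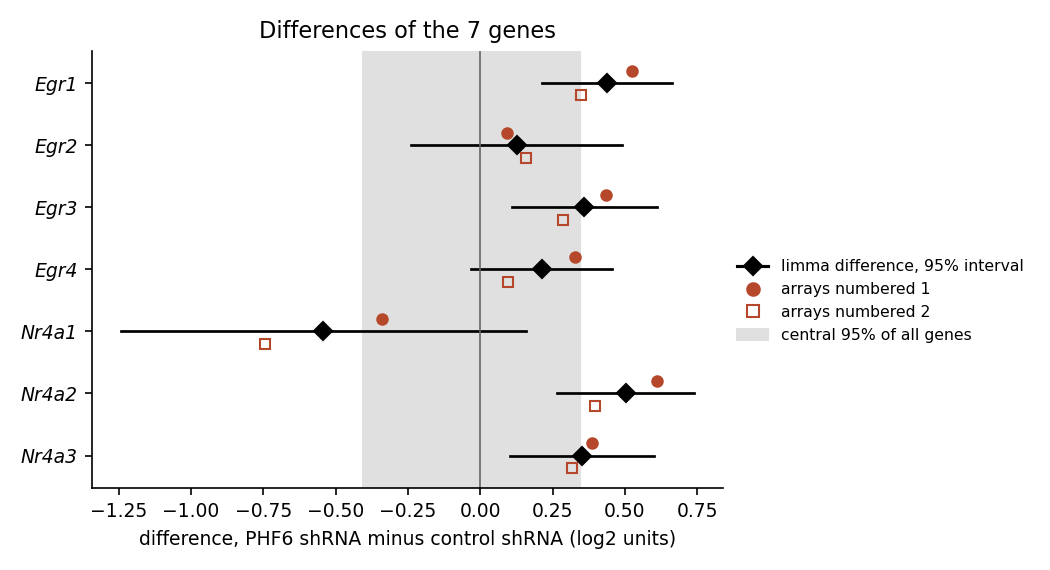
Difference between PHF6 shRNA and control shRNA arrays for the 7 genes, in log2 units. Diamonds and bars are limma's difference and 95% interval, circles and open squares the difference between arrays numbered 1 and between arrays numbered 2, and the grey band holds the central 95% of all genes, from -0.41 to 0.34. The intervals of Egr1, Egr3, Nr4a2 and Nr4a3 lie above 0, and that of Nr4a1 is the widest.

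The 2 groups did not overlap in 5 of the 7 genes, all higher in the PHF6 shRNA arrays, where 16.0% of all genes were higher without overlap and 21.7% lower. In the same 5 genes the difference exceeded the gap between duplicates of either group, against 10.5% of all genes on the higher side and 16.1% on the lower side. Compared between arrays of the same number, 6 genes were higher in the PHF6 shRNA array within both numbers (27.8% of all genes) and Nr4a1 was lower within both (34.0% of all genes). The differences were 0.61 between the arrays numbered 1 and 0.40 between those numbered 2 for Nr4a2, and 0.53 and 0.35 for Egr1. For Egr3 they were 0.43 and 0.29, for Egr4 0.33 and 0.10 and for Nr4a3 0.39 and 0.32. All 5 were thus larger between the arrays numbered 1. For Egr2 they were 0.09 and 0.16 and for Nr4a1 -0.34 and -0.75, both larger between those numbered 2.

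All 7 genes read lower in PHF6 shRNA duplicate 2 than in PHF6 shRNA duplicate 1, with a median gap of -0.17 log2 units, where 51.7% of all genes did and their median was -0.0059. In the control group 4 of the 7 genes read lower in duplicate 2, beside 49.5% of all genes. The median gap of the 7 genes there was -0.05, against 0.0024 over all genes. Nr4a1, Egr2, Egr3 and Nr4a3 were lower in duplicate 2 in both groups, as were 33.5% of all genes. The background level was also lower in duplicate 2, with a gap of -0.23 log2 units between the PHF6 shRNA arrays and -0.34 between the control arrays, and its part in the gaps of the dim Egr2, Egr3 and Egr4 was not tested. Among 15 other activity-induced transcription factor genes 6 were lower and 3 higher in duplicate 2 in both groups, and among 17 activity-induced effectors 12 were lower and 1 higher. The genes of these 2 lists with wider gaps in both groups than any of the 7 genes went both ways. Npas4, an activity-dependent transcription factor, read 8.83 and 7.48 log2 units in PHF6 shRNA duplicates 1 and 2, against 9.51 and 8.06 in the control duplicates. Dusp1, a phosphatase that switches off MAP kinases, read 9.74 and 8.80 in the PHF6 shRNA duplicates, against 9.54 and 8.89 in the control duplicates. Bhlhe40, a repressor of the circadian clock, went the other way, at 6.47 and 7.38 in the PHF6 shRNA duplicates, against 6.28 and 7.10 in the control duplicates, and so did the AP-1 gene Fosl1, with gaps of 0.83 and 0.44 in the PHF6 shRNA and control groups. Slc1a3, the astrocyte glutamate transporter GLAST, chosen after its values were seen, was also higher in duplicate 2, at 8.12 and 9.38 in the PHF6 shRNA duplicates, against 7.99 and 9.28 in the control duplicates.

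**Figure D4:**
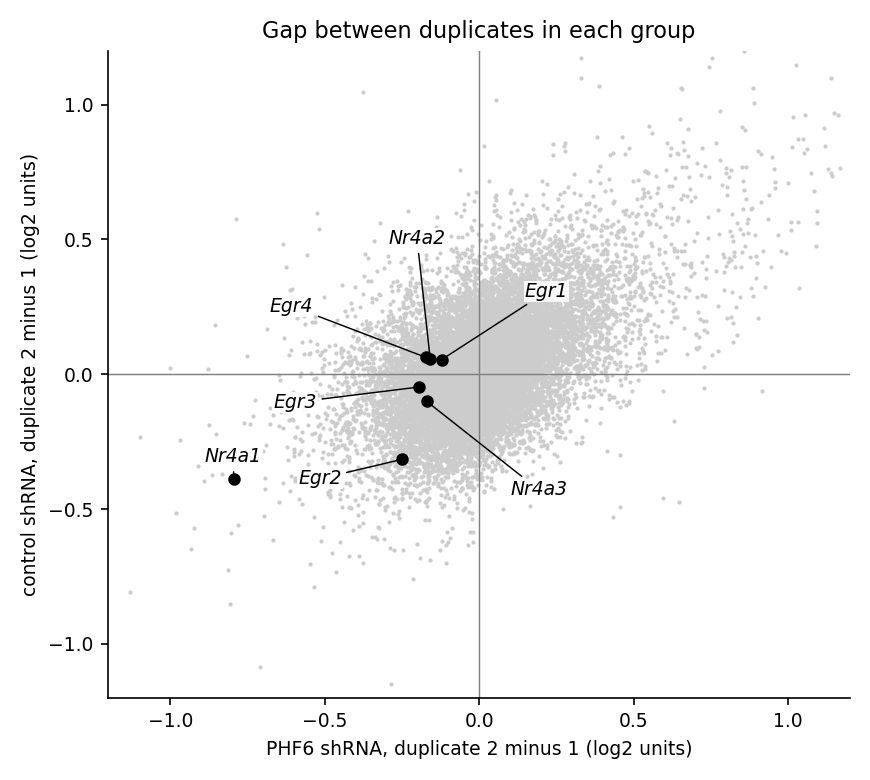
Gap between duplicates, duplicate 2 minus duplicate 1, in log2 units, in the PHF6 shRNA group (horizontal) and in the control shRNA group (vertical). Grey points are all genes, of which 49 lie outside the axis limits of 1.2, and black points the 7 genes. Nr4a1 lies far to the lower left, at -0.79 and -0.39, and all 7 genes lie left of 0.

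The patterns over the 4 arrays were compared by the Euclidean distance between mean-centred log2 values, a description over 4 arrays. Genes with symbols starting with LOC, RGD, AABR, Olr, Vom or Mir were left out. The other candidates were the 10329 remaining genes above background on at least 2 arrays. Egr1 and Nr4a2 were 0.07 log2 units apart, and 0.0968% of these genes were nearer to Egr1. Egr3 and Nr4a3 were 0.04 apart. Among these genes Egr3 was the second nearest to Nr4a3, after the synapsin gene Syn2 (0.04) and before Rasd2 (0.04), which encodes the small GTPase Rhes. Nr4a1 was between 0.77 (Egr2) and 1.18 (Nr4a2) from the other members. The genes nearest to Egr1 were Sgpp1, a sphingosine-1-phosphate phosphatase, Ptar1 and Vwa3a, at 0.03 each. The genes nearest to Nr4a2 were Ube2g1-ps1 and Pnpla3, at 0.03 each, and Vwa3a, at 0.04. The genes nearest to Nr4a1 were the orphan receptor gene Gpr63 (0.14), the growth factor gene Vegfd (0.17) and the zinc-finger gene Zfp385b (0.24). Egr3 was nearest to Pvr (0.03), Epha10 and Rasd2 (0.04 each), and Egr4 to Aldh5a1, Eeig2 and Ppm1k (0.01 each). Egr2, below background, was nearest to Sln (0.03), Ggt6 and Otos (0.04 each).

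Partners of the 2 families went both ways. Of 7 measured co-regulator genes 3 were higher and 4 lower in the PHF6 shRNA arrays, with a median of -0.03 log2 units, and none passed the adjusted threshold or an unadjusted p under 0.05. Nab2, a co-repressor that EGR proteins themselves induce, read 6.26 and 6.28 log2 units in the PHF6 shRNA arrays, against 6.12 and 6.10 in the control arrays, a difference of 0.16 ± 0.08 without overlap. Its relative Nab1 differed by -0.23 ± 0.15, with overlap. Crebbp, the histone acetyltransferase CBP, was at 8.38 and 8.63 in the PHF6 shRNA arrays, against 8.71 and 8.82 in the control arrays. The retinoid X receptor genes Rxrg and Rxrb differed by 0.15 ± 0.08 and -0.05 ± 0.13, and Rxrg was below background on all 4 arrays.

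Genes upstream of the 2 families went both ways, 9 higher and 8 lower of 17 measured, with a median of 0.01 log2 units. None passed the adjusted threshold, while 3 were higher and 1 lower at an unadjusted p under 0.05, beside 3.28% and 7.52% of all genes. Elk1 and Elk4 encode ternary complex factors, which bind beside SRF at CArG boxes. Elk1 read 8.40 and 8.38 log2 units in the PHF6 shRNA arrays, against 7.95 and 8.12 in the control arrays, a difference of 0.36 ± 0.10 (limma adjusted p = 0.31). Elk4 differed by 0.34 ± 0.10 (limma adjusted p = 0.32), and Map2k1, the MAP kinase kinase MEK1, by 0.37 ± 0.08 (limma adjusted p = 0.25). Rps6ka2, a ribosomal S6 kinase (RSK3) of the MAP kinase pathway, differed by -0.57 ± 0.11, at 6.85 and 6.95 in the PHF6 shRNA arrays, against 7.36 and 7.58 in the control arrays (limma adjusted p = 0.24). Crtc1, a calcium-regulated coactivator of CREB, differed by -0.39 ± 0.16, Creb1 by -0.22 ± 0.10 and Srf by -0.21 ± 0.09, all without overlap. Mef2c and Mef2d went the other way, by 0.16 ± 0.09 and 0.17 ± 0.11, also without overlap. A gap between duplicates was larger than the difference for Crtc1 (0.47 in the PHF6 shRNA group) and for Mef2d (0.20 in the control group). In this list 5 genes were higher and 6 lower without overlap between groups, beside 16.0% and 21.7% of all genes.

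Reported targets of the 2 families come in part from work in other cell types. Of 10 measured, 7 had a positive difference and none passed the adjusted threshold, the median difference was 0.07 log2 units, and 4 of the 10 were below background on all 4 arrays. Ngfr, the neurotrophin receptor p75, read 5.72 and 5.67 log2 units in the PHF6 shRNA arrays, against 5.28 and 5.39 in the control arrays, a difference of 0.36 ± 0.09 (limma adjusted p = 0.28), with control duplicate 1 below background. It was the only one of the 10 with an unadjusted p under 0.05. Bdnf, the neurotrophin gene, differed by 0.10 ± 0.18 and Cdk5r1, the CDK5 activator p35, by 0.07 ± 0.13. Arc differed by -0.03 ± 0.10 but was below background on all 4 arrays, so its difference says little. Th and Slc18a2, dopamine genes controlled by NR4A2 in the midbrain, were below background on all 4 arrays, and Gdnf differed by 0.07 ± 0.08.

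Other activity-induced genes also went both ways, and none passed the adjusted threshold. Of 15 transcription factor genes 10 were higher and 5 lower, with a median of 0.06 log2 units. Jun read 7.89 and 7.74 log2 units in the PHF6 shRNA arrays, against 7.24 and 7.63 in the control arrays, a difference of 0.38 ± 0.15 (limma adjusted p = 0.45). Junb, Jund, Nfil3 and Fos differed by 0.22 ± 0.10, 0.19 ± 0.10, -0.24 ± 0.13 and -0.28 ± 0.18. Npas4 differed by -0.63 ± 0.61. Of 17 effector genes 8 were higher and 9 lower, with a median of -0.03. Rgs2, which restrains G-protein signalling, read 9.24 and 8.95 in the PHF6 shRNA arrays, against 9.91 and 9.51 in the control arrays, a difference of -0.61 ± 0.17 (limma adjusted p = 0.32). Dusp5, a phosphatase of nuclear ERK, differed by 0.28 ± 0.11, and Inhba, Dusp4 and Ier5 by -0.16 ± 0.09, -0.26 ± 0.15 and -0.15 ± 0.09.

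**Figure D5:**
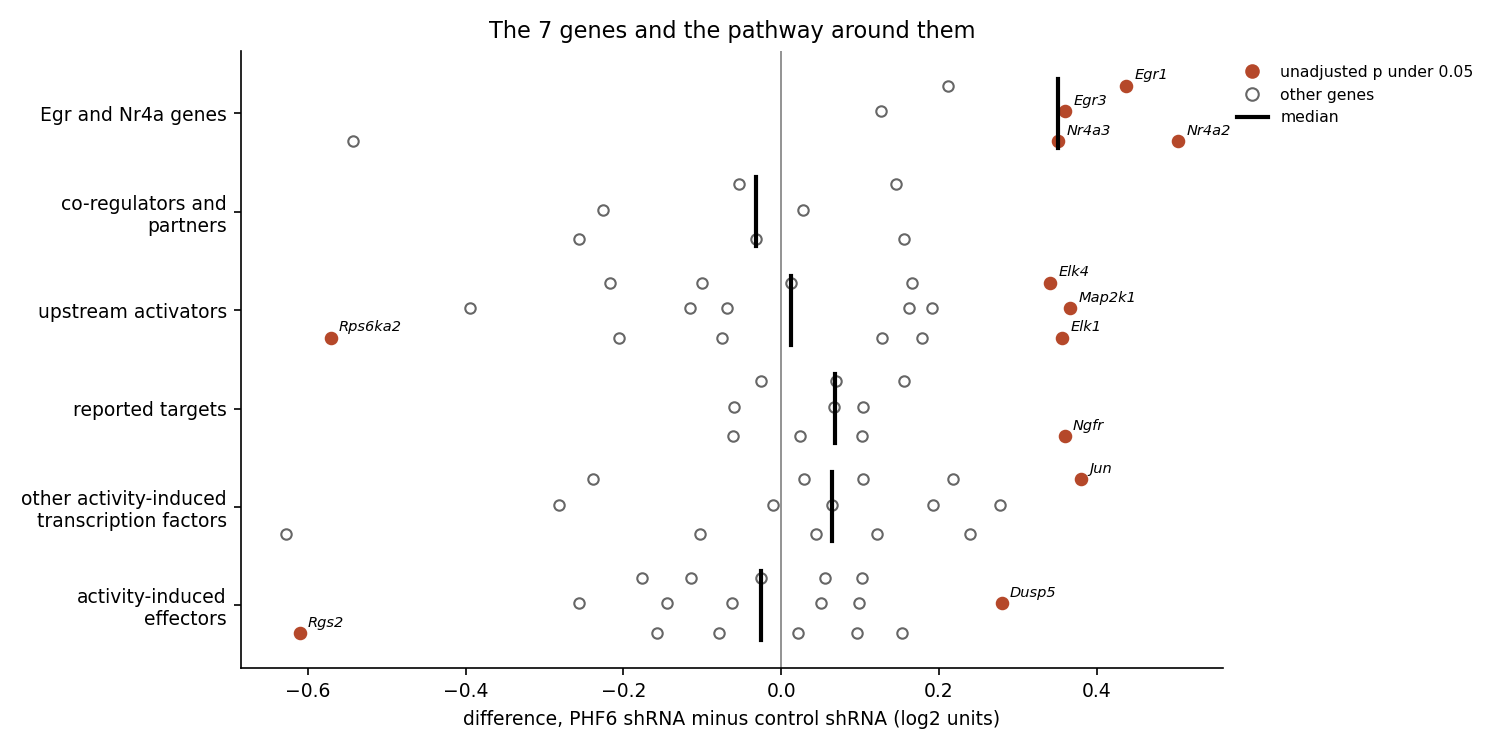
Difference between PHF6 shRNA and control shRNA arrays, in log2 units, for the 7 genes and 5 lists around them. Each point is a gene, filled and named where the unadjusted limma p was under 0.05, and black bars are medians. The median of the 7 genes stands at 0.35 and those of the lists between -0.03 and 0.07, and no gene shown passed the adjusted threshold.

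Cell type markers were read beside these differences, and none of them passed the adjusted threshold. Of 8 neuronal markers 7 were lower, where 52.3% of all genes were. Without overlap between groups 5 of them were lower, where 21.7% of all genes were. Their mean levels were 10.2 log2 units on both PHF6 shRNA arrays against 10.4 on both control arrays. All 7 measured astrocyte markers had a positive difference, but only 2, Slc1a2 and Aldoc, were higher without overlap, where 16.0% of all genes were. Gfap, Gja1 and Slc1a3 differed by 0.01 ± 0.29, 0.03 ± 0.33 and 0.12 ± 0.55 log2 units. Mean levels of the 7 were 6.52 and 7.06 in the PHF6 shRNA duplicates 1 and 2. They were 6.15 and 6.81 in the control duplicates, so that the groups overlapped. Of the 7 markers 4 were above background on the arrays numbered 1 and 7 on those numbered 2. Slc1a2, the astrocyte glutamate transporter GLT-1, led them at 0.98 ± 0.20 log2 units (limma adjusted p = 0.24). The part of these markers in the values of the Egr and Nr4a genes was not tested. Markers of microglia were above background in 2 to 3 of 7, those of endothelial and mural cells in 0 to 1 of 5, those of fibroblasts in 2 to 3 of 5 and those of the oligodendrocyte lineage in 2 to 5 of 7. Of 6 markers of dividing progenitors, 4 were above background on the arrays numbered 1 and 6 on those numbered 2.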

How the data were processed

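Total RNA of 4 samples was hybridised to 1-colour Affymetrix whole-transcript arrays after Ambion and Affymetrix labelling, per the labels' protocols. The authors deposited RMA probe set intensities, per the submitters' processing notes. The version is not given in the sources used here, nor are the settings. RMA corrects background, normalizes arrays by quantiles and usually returns log2 values, whereas these intensities are linear, so they were converted to log2. No detection calls were used, and the number of arrays limits precision.

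Of 29214 rows, 18644 carry 1 gene symbol, 962 several and 9608 none in the platform annotation. Symbols were updated through gene identifiers to RefSeq (GRCr8) for 18460 rows. The brightest probe set per gene gave 17245 genes. Groups, taken from the sample titles, entered limma 3.58.1 under R 4.3.3 (lmFit, eBayes, two-sided, no filter, no covariate, Benjamini-Hochberg over all genes). The fit was also run on data simulated from these genes' means and fitted variances, with noise independent between arrays and no effect of duplicate number. Named genes were the 7 members, Phf6, up to 5 genes of each pathway list by smallest p, the 3 nearest genes in pattern to each member, and a few others chosen after their values were seen. Members and lists were chosen with earlier results of these data known. List genes without a row were not analysed here. Alternatives covered the duplicate number as a block, each array left out, 3 scalings, array weights, 2 filters that drop dim genes, the probe set mean, 2 further eBayes settings and an adjusted p under 0.10.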

Additional observations from a re-analysis of the deposited data

How the results depend on the processing

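In the fit reported, 0 genes passed the adjusted threshold (limma, 1862 at an unadjusted p under 0.05). With the duplicate number as a replicate block 909 passed, 304 higher (1.76% of all genes) and 605 lower (3.51%), and leaving out each array in turn gave 0 to 90. Leaving out PHF6 shRNA duplicate 1 gave 2, and leaving out PHF6 shRNA duplicate 2 gave 90. All other alternatives gave 0, and the cause of these changes was not tested. The sample descriptions give the number after "exp", which may stand for an experiment shared by equal numbers, but they do not spell this out. The gaps between duplicates of the 2 groups correlated across genes (r = 0.57, genes are not independent replicates), and 684 genes differed by number in the block fit. With the replicate block 5 of the 7 genes passed, with the same differences: Nr4a2 (0.50, limma adjusted p = 0.021), Egr1 (0.44, 0.028), Nr4a1 (-0.54, 0.030), Nr4a3 (0.35, 0.046) and Egr3 (0.36, 0.048).

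The sign of 6 of the 7 genes was the same in all 14 refits, but not all of these could change it. The replicate block, the filters, the eBayes settings, the array weights and the probe set mean left each difference as it was. Only leaving out an array or another scaling moved the differences. Egr2, which is below background and not in 1 refit that drops dim genes, was at -0.031 without control duplicate 2, and between that and 0.28 with each array left out. Leaving out each array gave 0.42 to 0.58 for Nr4a2, 0.38 to 0.50 for Egr1, 0.27 to 0.44 for Nr4a3, 0.26 to 0.46 for Egr3, 0.13 to 0.30 for Egr4 and -0.94 to -0.15 for Nr4a1. Under other scalings and settings Nr4a2 reached 0.58 and Egr1 0.53. The medians of 4 of the 5 lists changed sign when at least 1 array was left out, the exception being the other transcription factors, at 0.02 to 0.13 over all settings. Signals near background limit what can be said of Egr2, Egr3 and Egr4.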
